A study of Mus musculus with 8 samples.

Results

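The 8 genes described here encode the myosin motor of the heart muscle cell and 1 kinase that acts on it. They are the heavy chains Myh6, Myh7 and Myh7b, the ventricular light chains Myl2 and Myl3, the atrial light chains Myl4 and Myl7, and the cardiac light chain kinase Mylk3. They were chosen by name from the 54532 genes of the deposited table, and each had exactly 1 row in it. RNA was measured in whole mouse hearts taken at postnatal day 4. The cHET hearts (4 libraries) were Mrps5 fl/+;Myh6-Cre: they carried 1 floxed allele of Mrps5, a protein gene of the mitochondrial ribosome, together with Cre driven by the promoter of Myh6, which is active in cardiomyocytes. The Ctrl hearts (4 libraries) had the same floxed allele, Mrps5 fl/+, and no Cre. The series calls the libraries of a group biological replicates; whether one holds 1 heart or a pool is not given in the sources used here, and each is called a heart below. A group with Cre and no floxed allele was not analysed here, so that effects of the Cre transgene and of the lost allele cannot be told apart. Cells other than cardiomyocytes keep both alleles in such hearts, and the promoter that drives Cre is that of Myh6, itself one of the 8 genes.

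Cardiac myosin is a hexamer of a pair of heavy chains, each with an essential and a regulatory light chain bound at its neck. The heavy chain head splits ATP and moves along actin. The alpha heavy chain, from Myh6, cycles faster than the beta heavy chain, from Myh7. The mouse ventricle makes mainly beta before birth and switches to alpha around birth as thyroid hormone rises. The light chains differ by chamber: Myl2 (regulatory) and Myl3 (essential) serve the ventricle, and Myl7 (regulatory) and Myl4 (essential) the atrium, while Myl4 and Myl7 are also made more widely in the embryonic heart. Mylk3 phosphorylates the ventricular regulatory light chain. The ratios of these isoforms are therefore used as readings of maturity and of chamber.

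Myh6 and Myh7 lie in tandem on the minus strand of chromosome 14 (GRCm38; Myh6, ENSMUSG00000040752, 54941921 to 54966927; Myh7, ENSMUSG00000053093, 54970684 to 54994626), with 3756 bases between them. Myh7b (ENSMUSG00000074652) lies on chromosome 2, 155611212 to 155634307, plus strand. Each of the 3 heavy chain genes holds a microRNA in an intron: Mir208a in Myh6, Mir208b in Myh7 and Mir499 in Myh7b. These microRNAs are made from the same primary transcripts as the heavy chains, and in mice miR-208a is known to be needed for the beta heavy chain to rise under stress or thyroid hormone loss. Their mature sequences are shown because they tie the 3 heavy chain genes together; the capitals mark the seed, bases 2 to 8 counted from the 5′ end, by which a microRNA finds its targets (RefSeq, GRCm38.p6).
mmu-miR-208a-3p: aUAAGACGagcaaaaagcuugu
mmu-miR-208b-3p: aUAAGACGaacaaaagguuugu
mmu-miR-499-5p: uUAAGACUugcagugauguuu
The microRNAs of Myh6 and Myh7 share the seed UAAGACG and differ from each other by G10A, A16G and C18U, with the base of miR-208a-3p given first. The microRNA of Myh7b differs from miR-208a-3p within the first 8 bases by A1U and G8U, so that its seed departs at the last seed base.

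The light chain genes lie apart from each other: Myl2 (ENSMUSG00000013936) on chromosome 5, 122100951 to 122113472, plus strand; Myl3 (ENSMUSG00000059741) on chromosome 9, 110741861 to 110769798, plus strand; Myl4 (ENSMUSG00000061086) on chromosome 11, 104550663 to 104595753, plus strand; and Myl7 (ENSMUSG00000020469) on the same chromosome, 5896637 to 5898782, minus strand. Mylk3 (ENSMUSG00000031698) lies on chromosome 8, 85324303 to 85386345, minus strand. The 250 bases before the RefSeq start of Myh6 (chr14:54966608-54966857, minus strand), Myl7 (chr11:5898783-5899032, minus strand) and Myl3 (chr9:110763428-110763677, plus strand) are shown for 1 heavy, 1 atrial and 1 ventricular chain (GRCm38.p6). For Myh6 and Myl3 this start lies inside the gene as the deposited table bounds it. Capitals mark matches on either strand to the M-CAT letters CATTCC, the GATA letters GATAAG, the thyroid hormone receptor site letters AGGTNA or the CArG box, the site of serum response factor.
Myh6: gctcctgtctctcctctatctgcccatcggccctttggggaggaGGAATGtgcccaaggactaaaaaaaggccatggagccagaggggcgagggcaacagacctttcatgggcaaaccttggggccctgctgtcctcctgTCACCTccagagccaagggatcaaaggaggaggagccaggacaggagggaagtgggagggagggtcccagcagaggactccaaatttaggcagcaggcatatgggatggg
Myl7: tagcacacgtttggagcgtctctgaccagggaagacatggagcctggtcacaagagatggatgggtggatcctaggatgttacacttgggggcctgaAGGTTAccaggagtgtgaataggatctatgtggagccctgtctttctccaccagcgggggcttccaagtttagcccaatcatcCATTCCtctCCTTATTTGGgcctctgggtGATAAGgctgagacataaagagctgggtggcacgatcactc
Myl3: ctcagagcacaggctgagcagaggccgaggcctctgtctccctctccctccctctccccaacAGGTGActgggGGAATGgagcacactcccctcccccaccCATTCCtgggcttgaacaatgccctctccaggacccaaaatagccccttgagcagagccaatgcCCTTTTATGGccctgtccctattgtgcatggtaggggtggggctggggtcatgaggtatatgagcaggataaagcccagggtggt
A CArG box stood 61 to 52 bases before the start of Myl7 and 85 to 76 bases before that of Myl3; 1.47% of 32851 promoter windows of this length hold one. The M-CAT letters, found in 12.6% of the windows, were present in all 3 sequences and stood at 2 places in that of Myl3. The AGGTNA letters also stood in all 3, and 37.2% of all windows hold them; GATAAG, in 6.55% of windows, was found in that of Myl7. The letters TATAAA, in 12.4% of windows, were not found in these 3, and no motif here overlaps another. Windows of the other members were searched too and are not shown, and none of them held a CArG box. For Myl2 the windows stand before RefSeq starts at 122092724 and 122093189, upstream of the gene as the deposited table bounds it (from 122100951). The bases just before that bound of Myl2 were not searched. The M-CAT letters stood in 1 window each of Myh7 and Mylk3, and in none of Myh7b, Myl2 and Myl4. AGGTNA stood in windows of Myh7b, Myl2 and Myl4, GATAAG in one of Mylk3 and TATAAA in one of Myl2. These matches describe letters and are not evidence of binding.

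The libraries held 15490622 to 19234777 reads assigned to genes, as rebuilt from the table, and 12890 to 13175 genes each reached 1 FPKM (fragments scaled by gene length and by the reads of the library). The summed FPKM of 7 cardiomyocyte markers, led by the actin gene Actc1 and the troponin gene Tnnc1, was 12324 to 15185 in cHET and 11633 to 14384 in Ctrl, so the labelled tissue carries its defining markers. Mrps5 itself stood at 6.84, 7.12, 7.0 and 7.68 FPKM in cHET 1 to 4 and at 11.6, 6.27, 10.1 and 5.15 FPKM in Ctrl 1 to 4, and the groups overlapped (exact two-sided permutation test, p = 0.486). The labels do not name the floxed exon, so this value checks them only in part. Some libraries stand apart. cHET 3, and to a lesser degree Ctrl 4, had low values of several atrial genes, and Ctrl 1 and Ctrl 2 held the most of the brown fat gene Ucp1, at 17.8 and 16.7 FPKM, against 6.56 FPKM or less in the other 6. Results that rest on these libraries are given with and without them. In whole hearts, fewer cells of a type and less RNA per cell cannot be told apart.

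All 8 genes passed the filter on low values, and none differed between the groups (limma on log2(FPKM + 1), adjusted p = 0.685 to 0.991), where the test called 0.023% of the 13029 genes (3 genes, all higher in cHET). At an unadjusted p under 0.05 the count was also 0 of 8, against 8.95% of all genes, and the groups' values overlapped for all 8, where 4.74% of all genes had groups without overlap. Of 168 fits of the 8 genes under other settings, 5 had an unadjusted limma p under 0.05 and 0 an adjusted one. The unadjusted values were 0.0422 for Myh6 and 0.0475 for Myh7 with library weights, 0.0069 and 0.0298 without Ctrl 1 and Ctrl 2, and 0.0078 for Myh7 without Ctrl 2 (limma). Of the fitted log2 fold changes, 7 lay below 0 and 1 above, with a median of -0.24, against 0.0086 over all genes tested; the sign changed for Myh6 (0.081) and Myl3 (0.035) under quantile normalization and for Myh7b (0.088) as TPM. Scaling to TPM moved the median of all genes to 0.10, and the members with it. The 8 genes together took 2.97, 2.76, 3.10 and 3.11% of all assigned reads in cHET 1 to 4. In Ctrl 1 to 4 they took 3.42, 3.15, 3.59 and 3.68%. The groups did not overlap in this sum, which was not tested and comes mostly from Myh6, Myl2 and Myl3. The lowest count of a single gene was 562 reads, for Myl4 in cHET 3, so counting error is small beside the differences between hearts.

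**Figure D1:**
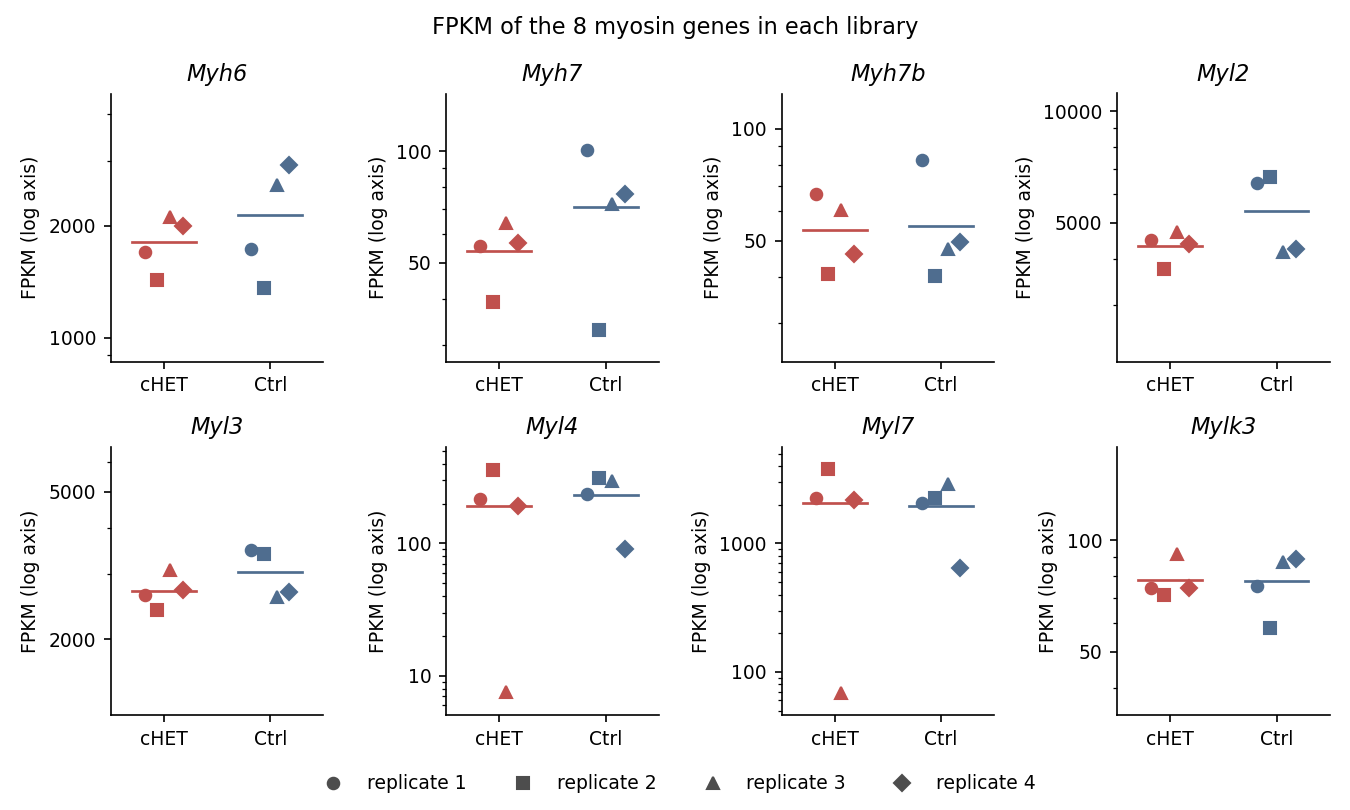
FPKM of the 8 genes in each library on log axes that differ between panels, with cHET left of Ctrl, 1 symbol per replicate number and a line at the group mean. The groups overlap in every panel, and Myl4 and Myl7 spread the most, with cHET 3 at 7.55 and 69.0 FPKM.

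Myh6, the alpha heavy chain, stood at 1700.2, 1431, 2115 and 2001 FPKM in cHET 1 to 4, and at 1730.1, 1362, 2573 and 2917 FPKM in Ctrl 1 to 4. Ctrl 3 and Ctrl 4 were above every cHET heart, while Ctrl 2 was the lowest of all. The means were 1812 ± 309 FPKM in cHET and 2146 ± 722 FPKM in Ctrl (SD, n = 4 each), and the log2 fold change was -0.20 (SE 0.257, 95% interval -0.77 to 0.38; limma, adjusted p = 0.804). Its size depended on which Ctrl hearts entered: it was -0.026 without Ctrl 4, -0.39 without Ctrl 2 and -0.61 without Ctrl 1 and Ctrl 2 (limma, adjusted p = 0.965, 0.680 and 0.442).

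Myh7, the beta heavy chain that marks the fetal ventricle, stood at 55.5, 39.2, 63.8 and 56.5 FPKM in cHET 1 to 4 and at 101, 33.1, 72.1 and 76.5 FPKM in Ctrl 1 to 4. Ctrl hearts held both the highest value, in Ctrl 1, and the lowest, in Ctrl 2. The means were 53.8 ± 10.4 FPKM in cHET and 70.6 ± 28.1 FPKM in Ctrl, with a log2 fold change of -0.30 (SE 0.308, 95% interval -1.0 to 0.39; limma, adjusted p = 0.756). The size of the difference depended on both of these hearts: the log2 fold change was -0.099 without Ctrl 1 and -0.63 without Ctrl 2 (limma, adjusted p = 0.981 and 0.405).

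Myh7b, a slow-type heavy chain gene whose transcript is the host of miR-499, stood at 66.8, 40.7, 60.5 and 46.0 FPKM in cHET 1 to 4 and at 82.3, 40.1, 47.4 and 49.6 FPKM in Ctrl 1 to 4. Replicate 1 was the highest of each group, and the remaining hearts lay between 40.1 and 60.5 FPKM. The means were 53.5 ± 12.2 FPKM in cHET and 54.9 ± 18.7 FPKM in Ctrl, and limma gave a log2 fold change of -0.010 (SE 0.232, 95% interval -0.53 to 0.51, adjusted p = 0.991). Without Ctrl 1 it was 0.20, without cHET 2 0.11 and without cHET 4 0.052 (limma, adjusted p = 0.964, 0.890 and 0.979).

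Myl2, the ventricular regulatory light chain, stood at 4490.1, 3757, 4719.9 and 4388 FPKM in cHET 1 to 4 and at 6408, 6634, 4177 and 4260.3 FPKM in Ctrl 1 to 4. Ctrl 1 and Ctrl 2 were the highest hearts, and the other Ctrl hearts lay within the cHET range. The means were 4339 ± 412 FPKM in cHET and 5369.7 ± 1333 FPKM in Ctrl, with a log2 fold change of -0.28 (SE 0.205, 95% interval -0.74 to 0.18; limma, adjusted p = 0.685). Ctrl 1 and Ctrl 2 were also the libraries with the most Ucp1. The 5 brown fat markers summed to 29.0 to 42.6 FPKM in cHET and to 61.8, 56.2, 24.6 and 28.6 FPKM in Ctrl 1 to 4, with Ucp1 at 0 in cHET 3 and 3 of the 5 tested. Their part in the result was not tested; without Ctrl 1 and Ctrl 2 the log2 fold change of Myl2 was 0.035 (adjusted p = 0.962).

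Myl3, the ventricular essential light chain, was also highest in Ctrl 1 and Ctrl 2 on the FPKM scale. It stood at 2637, 2401, 3082 and 2711 FPKM in cHET 1 to 4 and at 3492, 3390.2, 2609 and 2684 FPKM in Ctrl 1 to 4. The other Ctrl hearts lay within the cHET range, and the groups overlapped. The means were 2708 ± 282 FPKM in cHET and 3044 ± 462 FPKM in Ctrl, and the log2 fold change was -0.16 (SE 0.164 with a 95% interval of -0.53 to 0.21; limma, adjusted p = 0.754). Without Ctrl 1 and Ctrl 2 it was 0.027 (adjusted p = 0.975). FPKM summed over all genes was also highest in Ctrl 1 and Ctrl 2, at 450265 and 467217, against 353291 to 392047 in the other hearts. As TPM, which divides by this sum, the log2 fold change was -0.063 for Myl3 and -0.18 for Myl2 (limma, adjusted p = 0.832 and 0.701).

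Myl4, the atrial essential light chain, stood at 217, 358, 7.55 and 190.0 FPKM in cHET 1 to 4 and at 235, 310.1, 298 and 89.9 FPKM in Ctrl 1 to 4. cHET 3 was far below all others, Ctrl 4 was the next lowest, and the other 6 hearts lay between 190.0 and 358 FPKM. The means were 193 ± 144 FPKM in cHET and 233 ± 101 FPKM in Ctrl. The log2 fold change was -0.99 (SE 1.06, 95% interval -3.38 to 1.40; limma, adjusted p = 0.767), and without cHET 3 alone it was 0.22 (adjusted p = 0.939). Without both cHET 3 and Ctrl 4, a choice made after the values were seen, it was -0.19 (adjusted p = 0.776).

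Myl7, the atrial regulatory light chain, stood at 2272, 3775, 69.0 and 2179 FPKM in cHET 1 to 4 and at 2071, 2252, 2918 and 643 FPKM in Ctrl 1 to 4. The same 2 hearts were lowest, and the highest heart, cHET 2, stood 54.7 times above the lowest. The means were 2074 ± 1524 FPKM in cHET and 1971 ± 957 FPKM in Ctrl, so the cHET mean was the higher one while the log2 fold change was -0.69 (SE 1.15, 95% interval -3.29 to 1.92; limma, adjusted p = 0.851). Without cHET 3 the log2 fold change was 0.62 (adjusted p = 0.891), and without both cHET 3 and Ctrl 4 it was 0.15 (adjusted p = 0.829).

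Mylk3, the cardiac kinase of the ventricular regulatory light chain, varied less, with 74.1, 71.0, 92.0 and 74.4 FPKM in cHET 1 to 4 and 75.4, 58.1, 87.2 and 88.9 FPKM in Ctrl 1 to 4. cHET 3 was the highest heart and Ctrl 2 the lowest. The means were 77.9 ± 9.55 FPKM in cHET and 77.4 ± 14.2 FPKM in Ctrl, and the log2 fold change was 0.021 (SE 0.152, 95% interval -0.32 to 0.36; limma, adjusted p = 0.969). It was -0.11 without Ctrl 2 and -0.061 without cHET 3 (adjusted p = 0.863 and 0.955).

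**Figure D2:**
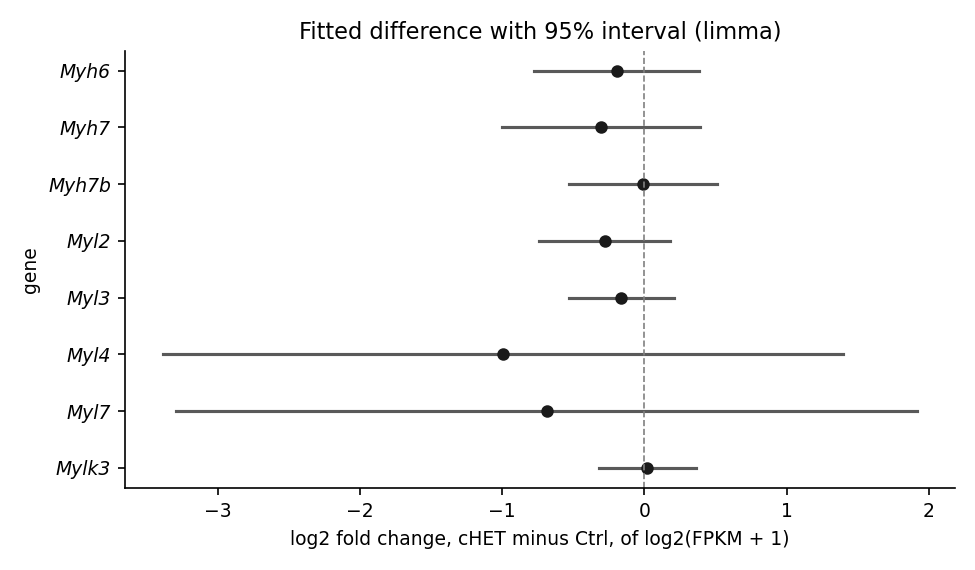
Fitted log2 fold change of each gene, cHET minus Ctrl, on log2(FPKM + 1), with its 95% interval from limma over 4 libraries per group and a dashed line at 0. Every interval spans 0, and those of Myl4 (-3.38 to 1.40) and Myl7 (-3.29 to 1.92) are the widest.

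The spread between hearts of one group was wide for the atrial light chains and the heavy chains. The pooled SD of log2(FPKM + 1) within groups was 1.99 for Myl7 and 1.83 for Myl4, larger than that of 99.95% and 99.9% of the genes tested, whose median was 0.171. Among the heavy chains it was 0.523 for Myh7, 0.401 for Myh6 and 0.388 for Myh7b, each above the SD of at least 91.3% of genes. The ventricular light chains and the kinase were closer to the typical gene, at 0.276 for Myl2, 0.230 for Mylk3 and 0.188 for Myl3.

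The alpha to beta ratio, Myh6 over Myh7 in FPKM, was 30.6, 36.5, 33.1 and 35.4 in cHET 1 to 4 and 17.1, 41.2, 35.7 and 38.1 in Ctrl 1 to 4. The cHET ratios lay within a narrow band inside the Ctrl range, and Ctrl 1, the heart with the most Myh7, had the lowest ratio. The means were 33.9 ± 2.61 in cHET and 33.0 ± 10.8 in Ctrl (SD, n = 4 each), a difference of 0.11 in mean log2 ratio (exact two-sided permutation test, p = 0.971, adjusted over the 3 ratios 0.971; the smallest p that 4 against 4 hearts allow is 0.0286). Without Ctrl 1 the difference was -0.18 (exact permutation test, p = 0.114), so its sign rested on that heart. Myh6 made up 96.8 to 97.3% of the summed Myh6 and Myh7 FPKM in cHET hearts and 94.5 to 97.6% in Ctrl hearts, so alpha was the main heavy chain transcript in each heart. Per length of the principal coding transcript the alpha to beta ratio was 24.0 to 28.6 in cHET and 13.4 to 32.3 in Ctrl.

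The ventricular to atrial ratio of the regulatory light chains, Myl2 over Myl7, was 1.98, 0.995, 68.4 and 2.01 in cHET 1 to 4 and 3.09, 2.95, 1.43 and 6.62 in Ctrl 1 to 4. cHET hearts held both the lowest and the highest ratio. The medians were 2.00 in cHET and 3.02 in Ctrl, whereas the mean log2 ratio was higher in cHET by 0.41 (exact two-sided permutation test, p = 0.943, adjusted 0.971). Without cHET 3 the log2 difference was -0.95 (exact permutation test, p = 0.229), and without both cHET 3 and Ctrl 4 it was -0.57 (exact permutation test, p = 0.3). Myl2 made up 49.9 to 98.6% of the summed Myl2 and Myl7 FPKM in cHET hearts and 58.9 to 86.9% in Ctrl hearts.

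The ventricular to atrial ratio of the essential light chains, Myl3 over Myl4, was 12.2, 6.71, 408 and 14.3 in cHET 1 to 4 and 14.8, 10.9, 8.75 and 29.9 in Ctrl 1 to 4. The same hearts stood out as for the regulatory chains: cHET 3 was the highest, Ctrl 4 the next, and cHET 2 the lowest. The medians were 13.2 in cHET and 12.9 in Ctrl, and the mean log2 ratio was higher in cHET by 0.87 (exact two-sided permutation test, p = 0.771, adjusted 0.971). Without cHET 3 the log2 difference was -0.45 (exact permutation test, p = 0.486), and without both it was -0.096 (exact permutation test, p = 0.9). Per length of the principal coding transcript, Myl2 over Myl7 was 2.93 to 201 in cHET and 4.22 to 19.5 in Ctrl, and Myl3 over Myl4 was 2.77 to 169 in cHET and 3.62 to 12.4 in Ctrl. Over both pairs, summed ventricular over summed atrial light chain FPKM was 2.86, 1.49, 102 and 3.00 in cHET 1 to 4 and 4.29, 3.91, 2.11 and 9.47 in Ctrl 1 to 4.

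**Figure D3:**
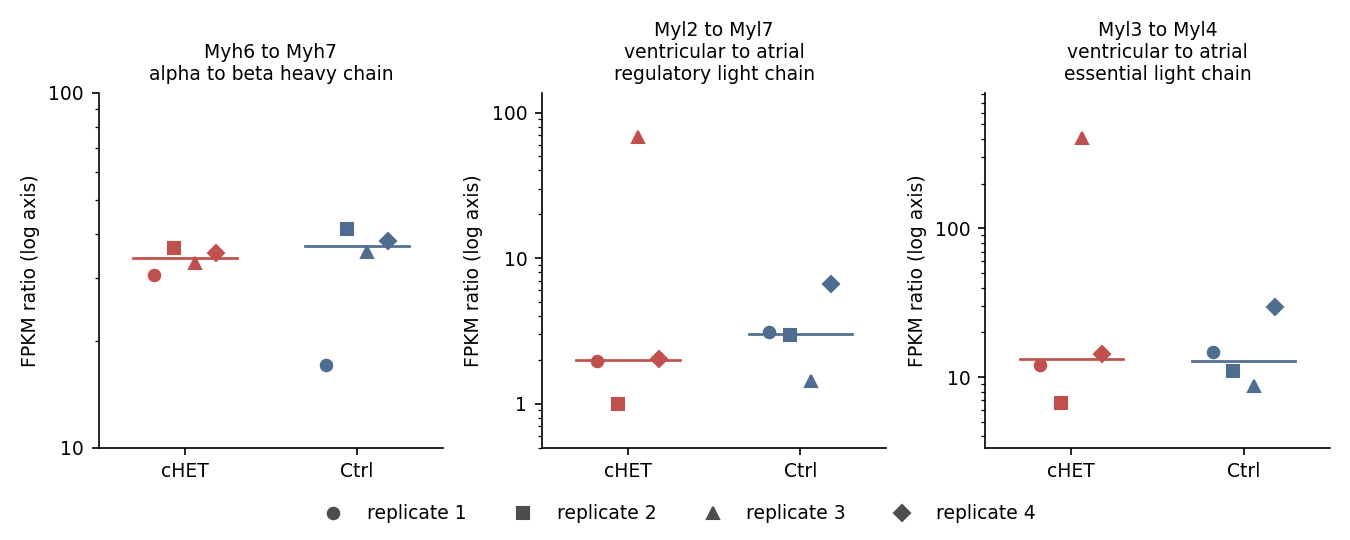
Isoform ratios of FPKM in each library on log axes, with cHET left of Ctrl, 1 symbol per replicate number and a line at the group median. The ratio of Myh6 to Myh7 is between 30.6 and 36.5 in cHET and between 17.1 and 41.2 in Ctrl, and cHET 3 stands alone at 68.4 for Myl2 to Myl7 and 408 for Myl3 to Myl4.

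**Figure D4:**
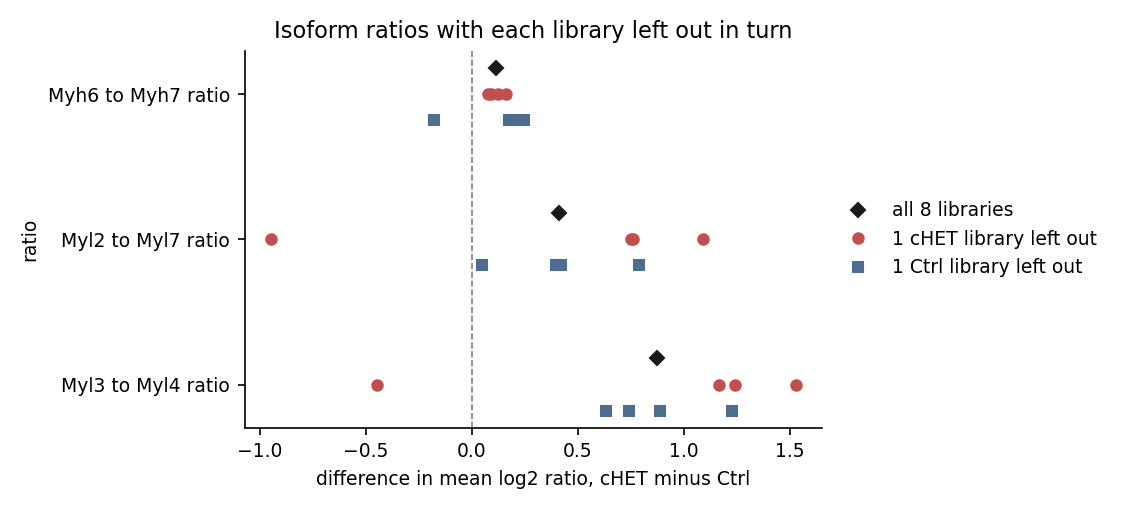
Difference in mean log2 ratio, cHET minus Ctrl, with all 8 libraries and with each library left out in turn, with a dashed line at 0. The light chain ratios fall below 0 (-0.95 and -0.45) when cHET 3 is left out, and the heavy chain ratio (-0.18) when Ctrl 1 is left out.

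Within a chamber the light chains kept closer ratios. Myl7 over Myl4 was 9.15 to 11.5 in cHET and 7.16 to 9.79 in Ctrl, although the highest heart stood 54.7 times above the lowest for Myl7 and 47.4 times for Myl4. Myl2 over Myl3 was 1.53 to 1.70 in cHET and 1.59 to 1.96 in Ctrl. Myh7 over Myh7b was 0.830 to 1.23 in cHET and 0.824 to 1.54 in Ctrl.

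Over the 8 hearts, 28 pairs among the 8 genes were compared on log2(FPKM + 1). Myl4 and Myl7 had a Pearson r of 0.99 (permutation p = 0.00067, adjusted 0.0094) and a Spearman rho of 0.83 (permutation p = 0.0154, adjusted 0.144). Without cHET 3 and Ctrl 4 their r was 0.76 (permutation p = 0.075), so that the relation rests in large part on these hearts. Myl2 and Myl3 had an r of 0.96 (permutation p = 0.00062, adjusted 0.0094) and a rho of 0.90 (permutation p = 0.0046, adjusted 0.0639), and without Ctrl 1 and Ctrl 2 an r of 0.90 (permutation p = 0.0389). Myh6 and Mylk3 had an r of 0.85 (permutation p = 0.0068, adjusted 0.0634) and a rho of 0.90 (permutation p = 0.0046, adjusted 0.0639), and without Ctrl 3 and Ctrl 4 an r of 0.85 (permutation p = 0.0069). The adjacent genes Myh6 and Myh7 had an r of 0.66 (permutation p = 0.0755, adjusted 0.352) and a rho of 0.76 (permutation p = 0.0368, adjusted 0.172), and without Ctrl 3 and Ctrl 4 an r of 0.64 (permutation p = 0.15). All other pairs had adjusted p-values of 0.172 or more by either measure over the 8 hearts. Some were stronger with hearts left out. Without Ctrl 1 and Ctrl 2, Myl3 had an r of -0.92 with Myl4 and -0.91 with Myl7 (permutation p = 0.0069 and 0.0097, not adjusted). Without cHET 1 and Ctrl 1, Myh7b had an r of -0.92 with Myl4 and -0.90 with Myl7 (permutation p = 0.0083 and 0.0153, not adjusted). These negative values were picked after they were seen, and cHET 3 and Ctrl 4, the lowest hearts for Myl4 and Myl7, stayed in. Among the hearts kept, cHET 3 was the highest for Myl3 (3082 FPKM) and for Myh7b (60.5 FPKM). The r of these pairs without cHET 3 was not computed. The genes of a library share a scaling, which moves them together.

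Per length as the authors used it, the mean FPKM over the 8 hearts ran from Myl2 (4854) through Myl3 (2876), Myl7 (2022), Myh6 (1979), Myl4 (213), Mylk3 (77.6) and Myh7 (62.2) to Myh7b (54.2). Neighbours in this order were compared as a description, since the same values set the order and so chose the pairs. Myl2 exceeded Myl3 in 8 of 8 hearts, as Myh6 did Myl4 (exact sign-flip permutation test over hearts, adjusted p = 0.0273 for each). The other neighbours in this order did not differ beyond their spread (exact permutation test, adjusted p = 0.109 to 0.641). By mean FPKM these genes ranked from place 10 (Myl2) to place 879 (Myh7b) in the whole table.

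This order depends on the length by which reads are divided. The length the authors used for Myl4 was 4637 bases, against 879 bases for its principal coding transcript, and 1950 against 662 bases for Myl2, while that of Myl7 was 590 bases by both. Per principal transcript length, an alternative added after the values were seen, the means ran from Myl2 (14299) through Myl3 (6273), Myh6 (2177), Myl7 (2022), Myl4 (1125), Mylk3 (90.0) and Myh7 (87.4) to Myh7b (58.3). Myl7 stood above Myl4, as it did by the authors' length, by a mean log2 difference of 0.80, in 8 of 8 hearts (exact permutation test, adjusted p = 0.0137). Myh7 now exceeded Myh7b in 8 of 8 hearts and Myl4 exceeded Mylk3 in 7 of 8 (exact permutation test, adjusted p = 0.0137 and 0.0219). By the authors' length these neighbours did not differ beyond their spread. Myh6 and Myl7 did not differ by this length, nor did Mylk3 and Myh7 (exact permutation test, adjusted p = 0.492 for each). Ratios between genes shift by such a factor, whereas comparisons of cHET with Ctrl do not, since the length is the same in every library.

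The chains resemble each other to different degrees, which bears on how reads are assigned. The coding sequences of Myh6 and Myh7 were identical at 91.8% of aligned bases, and 1373 of the 6064 stretches of 50 bases in the Myh6 transcript (22.6%) also occur in that of Myh7. Myl3 and Myl4 were identical at 78.1% and Myl2 and Myl7 at 65.1%, and no stretch of 50 bases was shared by any other pair within the heavy or within the light chains. How reads that fit more than 1 gene were counted is not given in the sources used here, so the Myh6 and Myh7 values, and with them the alpha to beta ratio, are uncertain to that extent. Of the exon bases of Myh7, 13.3% also belong to another gene, among them the antisense RNA Mhrt; for the other 7 genes the share was 4.65% or less.

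The noncoding RNAs of the heavy chain genes were read next. Mhrt, an antisense RNA that in mice is known to bind the chromatin remodeller Brg1, stood at 38.6, 27.8, 30.9 and 30.7 FPKM in cHET 1 to 4 and at 26.5, 32.4, 29.4 and 36.5 FPKM in Ctrl 1 to 4 (log2 fold change 0.035; limma, adjusted p = 0.936). The groups overlapped, and without a stated strand setting its reads and those of Myh7 cannot be told apart where they overlap. The row of Mir208b held 339 to 520 reads in cHET and 254 to 502 in Ctrl, and that of Mir208a held 68 to 106 in cHET and 42 to 98 in Ctrl (log2 fold changes 0.053 and 0.24; limma, adjusted p = 0.945 and 0.764). Mir499 had 0 reads in each cHET library and in 3 Ctrl libraries, where the exact 95% Poisson interval reaches 3.69 reads, and 3 in Ctrl 2. The libraries were made from poly-A RNA, so these rows count reads on the precursor stretch of the host intron and not the mature microRNAs. In FPKM the row of Mir208b (209 to 398) stood above its host Myh7 (33.1 to 101), though in reads it stood below Myh7 (4601 to 13504). That of Mir208a (31.3 to 74.7 FPKM) stood below its host Myh6 (1362 to 2917 FPKM). The rows of Mir208b and Mir208a are 77 and 83 bases long, against 8616 and 6726 bases used for Myh7 and Myh6. FPKM of rows so unlike in length are not like measures. The source of the difference between the 2 rows was not tested.

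Several atrial genes were low in the same hearts as the atrial light chains, but not all of them. Of the 14 atrial markers, 10 had their lowest value in cHET 3, and for 8 the lowest pair of hearts was cHET 3 and Ctrl 4. Summed over these markers, most of it from Nppa, FPKM was 1145, 1448, 224 and 1494 in cHET 1 to 4 and 1353, 1910, 2196 and 859 in Ctrl 1 to 4, so that cHET 3 and Ctrl 4 were the lowest hearts here too. Nppa, the atrial natriuretic peptide gene, had 163 FPKM in cHET 3 and 658 FPKM in Ctrl 4, against 833 to 1733 FPKM in the other 6 hearts. Sln, an inhibitor of the calcium pump of the atrium, had 1.37 FPKM in cHET 3 and Mybphl, an atrial myosin binding protein gene, 0.976 FPKM. In Ctrl 4 these had 68.4 and 21.6 FPKM. The potassium channel genes Kcna5 and Kcnj5 were not low in these hearts: Kcna5 had its highest values there, 9.09 FPKM in cHET 3 and 9.41 FPKM in Ctrl 4, and Kcnj5 had 19.7 and 19.8 FPKM. Bmp10, a growth factor gene of the atrium, had 1.55 FPKM in cHET 3, its lowest value, and 24.3 FPKM in Ctrl 4, within the range of the other hearts. Of the 14 markers 0 passed the test, 5 lay above 0 and 9 below, with a median log2 fold change of -0.21, against 0.0086 over all genes. No atrial marker was listed at 0 in all hearts. The part of how much atrial tissue each sample held was not tested.

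The ventricular markers were not low in cHET 3. Summed FPKM of the 6 ventricular markers was 538 to 739.5 in cHET and 561 to 749 in Ctrl, and cHET 3 was the highest of its group, at 739.5. Pln, the phospholamban gene, was 281, 223, 292 and 194 FPKM in cHET 1 to 4 and 439, 305, 320.1 and 316 FPKM in Ctrl 1 to 4, without overlap (log2 fold change -0.48; limma, adjusted p = 0.486). Lbh (0.21) and Irx4 (-0.21), both transcriptional regulators of the ventricle, had adjusted p-values of 0.736 and 0.679. Of the 6, 0 passed the test and the median log2 fold change was 0.058.

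**Figure D5:**
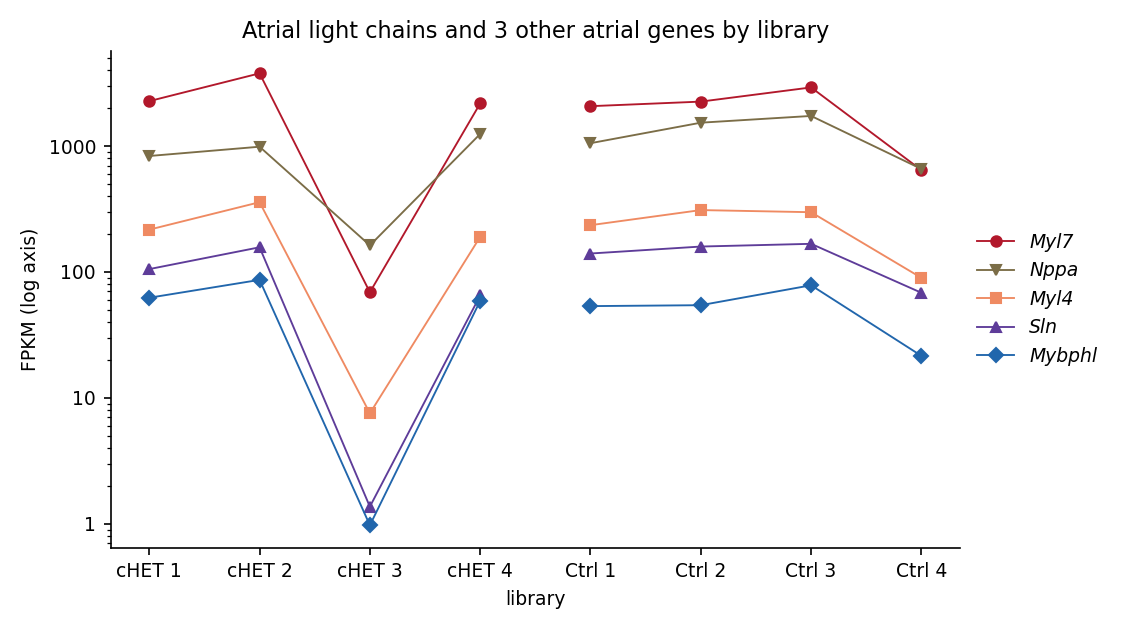
FPKM on a log axis of the light chains Myl7 and Myl4 and of the 3 atrial markers with the highest mean, Nppa, Sln and Mybphl, in each library, with lines only to guide the eye between hearts that have no order. All 5 genes are lowest in cHET 3 (Myl7 69.0, Myl4 7.55, Sln 1.37 FPKM), and in Ctrl 4 all but Sln are the next lowest.

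The genes most like each member across the 8 hearts were named by the highest Pearson r of log2(FPKM + 1) among 11314 other protein-coding genes, as a description. For Myl7 these were Mybphl (r = 0.996), Fgf12 (0.991) and Gucy1a1 (0.975), and for Myl4 Mybphl (0.991), Sln (0.982) and Fgf12 (0.982), and Fgf12, like Mybphl and Sln, is on the atrial marker list. Without cHET 3 and Ctrl 4 the r with Myl7 was 0.96 for Mybphl, 0.91 for Fgf12 and 0.92 for Gucy1a1, and that with Myl4 was 0.60 for Mybphl, 0.86 for Sln and 0.76 for Fgf12. For Myl2 they were Acyp2 (0.979), Ndufa9 (0.973) and Stk16 (0.965), and for Myl3 Ndufa9 (0.951), Eef1akmt1 (0.947) and Dscr3 (0.944). Without Ctrl 1 and Ctrl 2 the r with Myl2 was 0.93 for Acyp2, 0.75 for Ndufa9 and 0.68 for Stk16. That with Myl3 was 0.84 for Ndufa9, 0.81 for Eef1akmt1 and 0.77 for Dscr3. For Myh6 they were Lrrc41 (0.966), Sympk (0.966) and Epg5 (0.955). Myh7 was followed most closely by Cul7 (0.976), Cacna1c (0.961) and Map7 (0.946), and Myh7b by Ivns1abp (0.977) and Cdk8 (0.974). For Mylk3 the closest were Osbp (0.989), Snrk (0.982) and Lmo7 (0.981).

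Of the 11 other myosin II heavy chain genes listed, 4 had enough signal to be tested and 0 passed. The nonmuscle chains Myh9 and Myh10 had log2 fold changes of 0.29 and 0.41 and the smooth muscle chain Myh11 one of -0.31 (limma, adjusted p = 0.633, 0.547 and 0.600). The 3 adult skeletal heavy chains Myh1, Myh2 and Myh4 averaged 0.0146 FPKM or less in either group. Of 8 other light chain genes 7 were tested and 0 passed. Myl9, the regulatory chain of smooth muscle, averaged 787 ± 202 FPKM in cHET and 626 ± 253 FPKM in Ctrl (log2 fold change 0.39; limma, adjusted p = 0.706). Myl1, an essential chain of skeletal muscle and embryonic heart, stood at 22.1, 41.2, 5.73 and 20.7 FPKM in cHET 1 to 4 and at 32.5, 80.7, 54.2 and 24.8 FPKM in Ctrl 1 to 4 (log2 fold change -1.19; limma, adjusted p = 0.572). cHET 3 was the lowest heart for this gene as well. Myl6b had a log2 fold change of 0.14 (limma, adjusted p = 0.720).

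Of the 14 kinase, calmodulin and phosphatase genes that act on light chains, 13 were tested and 0 passed, with a median log2 fold change of 0.035 against 0.0086 over all genes. The kinases Camk2d and Rock2 had log2 fold changes of 0.20 and 0.14, and Ppp1r12a, the targeting subunit of myosin phosphatase, one of 0.17 (limma, adjusted p = 0.583, 0.707 and 0.659). All 4 chaperone genes for myosin folding were tested and 0 passed. Hsp90aa1 stood at 73.3, 72.2, 85.3 and 91.3 FPKM in cHET 1 to 4 and at 52.8, 70.5, 57.8 and 61.4 FPKM in Ctrl 1 to 4, without overlap (log2 fold change 0.41; limma, adjusted p = 0.415). Unc45b and Smyd1, which assist it in folding myosin heads, had log2 fold changes of 0.14 and -0.014 (adjusted p = 0.769 and 0.977).

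Of 15 regulators of the heavy and light chain genes 14 were tested and 0 passed, with 10 log2 fold changes above 0, 4 below, and a median of 0.17 against 0.0086 over all genes. Purb, a repressor of Myh6, averaged 18.5 FPKM in cHET and 15.6 FPKM in Ctrl (log2 fold change 0.24; limma, adjusted p = 0.524). Smarca4, the Brg1 remodeller that acts on the Myh6 and Myh7 promoters, and Tead1, which binds M-CAT letters, had log2 fold changes of 0.28 and 0.21 (limma, adjusted p = 0.600 and 0.675).

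Markers of other tissues that a dissected heart can hold were read for the same libraries, with 0 called in each list in this fit. Red cell genes were highest in Ctrl 2, where Hbb-bs had 3632 FPKM and Hba-a1 3643 FPKM, against 510 to 1307 and 406 to 969 FPKM in the other Ctrl hearts and 775 to 1215 and 596 to 850 FPKM in cHET. Summed FPKM of the 5 epicardial markers was 19.1 to 37.7 in cHET and 38.3 to 77.8 in Ctrl, with Msln at 11.6 ± 3.94 FPKM in cHET and 22.1 ± 7.05 FPKM in Ctrl and Upk3b at 6.75 ± 2.77 FPKM in cHET and 14.8 ± 7.58 FPKM in Ctrl. The epicardial regulators Tbx18 and Wt1 averaged 6.03 and 2.93 FPKM in cHET, against 5.71 and 2.92 FPKM in Ctrl (log2 fold changes 0.071 and -0.0049). Leukocyte markers summed to 43.8 to 64.8 in cHET and 58.3 to 115 in Ctrl, with C1qa at a log2 fold change of -0.43 and C1qb at -0.56. Among skeletal markers Acta1, an actin that the young heart also makes, averaged 123 ± 32.7 FPKM in cHET and 49.1 ± 22.2 FPKM in Ctrl, without overlap (log2 fold change 1.41; limma, adjusted p = 0.345), while Ckm had a log2 fold change of -0.0014. Tnni2, the fast skeletal troponin I gene, averaged 7.35 ± 0.245 FPKM in cHET and 2.99 ± 1.09 FPKM in Ctrl, also without overlap (log2 fold change 1.11; limma, adjusted p = 0.203), and it passed the test with library weights. Among the endothelial genes Emcn averaged 9.0 ± 0.249 FPKM in cHET and 12.2 ± 2.32 FPKM in Ctrl, without overlap (log2 fold change -0.39; limma, adjusted p = 0.404), and Tek had a log2 fold change of -0.23, against 0.38 for Cdh5. The brown fat genes Ucp1 and Cidea, the smooth muscle genes Acta2 and Smtn, the endothelial genes Cdh5 and Pecam1 and the fibroblast genes Postn and Col1a1 had adjusted p-values of 0.669 to 0.974. The part of these tissues in the myosin values was not tested.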

How the data were processed

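RNA of whole hearts was sequenced from poly-A RNA, per the labels' protocols. The values in the deposited table are FPKM, scaled by the authors to gene length and library total. The build mm9 and the tools DESeq2 1.20.0, featureCounts 1.5.0-p3 and HISAT2 2.0.5 are named in the submitters' processing notes, without roles. The table's coordinates were compared with GENCODE M21 on GRCm38, where 98.3% of 54409 shared identifiers had the same start and end, so coordinates are given on GRCm38. Handling of strand and of reads that match several genes is not given in the sources used here.

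FPKM times gene length gave whole reads within 0.05 reads for 100% of values, so reads were rebuilt; the authors' library totals were 0.968 to 1.04 times their sum. mtDNA genes took 17.9 to 26.8% of summed FPKM. Genes with a mean FPKM of at least 1 (13029 genes) entered limma 3.58.1 (R 4.3.3; trend and robust) on the log2(FPKM + 1) scale, cHET against Ctrl, two-sided, with Benjamini-Hochberg adjustment at 0.05; folds of low genes are understated on this scale. Log2 ratios, without a pseudocount, were compared by exact permutation of libraries with scipy 1.17.1, adjusted over the 3 ratios. Exact Poisson intervals cover counting error only.

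On reads drawn at random for these 13029 genes and 8 libraries with known changes, the limma step recovered 37.3% of 67 genes changed 1.5-fold, 79.1% of 67 changed 2-fold and 98.5% of 66 changed 4-fold, and called 0.0857% of 12829 unchanged genes. These rates are over all genes, with each gene's spread averaged with that of genes of like level, and were not computed for the members. They do not hold for genes as variable as Myl4 and Myl7 (pooled SD 1.83 and 1.99, against a median of 0.171). The heavy chains also spread more than most genes. Libraries of a group differed by 16.4 or more chi-square per gene, far above sampling noise, and each counts as 1 replicate.

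The members and gene lists were chosen with earlier results of these data known. Named were the 8 genes, Mrps5, the 3 genes most like each member, up to 3 genes of smallest p per pathway list, the 3 atrial and 3 ventricular markers of highest mean and 2 of each other marker list. Fgf12 on the atrial list is named under the likeness rule. Kcna5, Kcnj5, Bmp10, Tbx18, Wt1, Tnni2, Emcn and Tek are named outside the rule, after their values were seen. Of the genes most like the members, 1 is not reported here. Alternatives were another pseudocount, other filters and scalings, library weights, voom, a replicate block, protein-coding genes alone and libraries left out. Promoters and microRNAs came from RefSeq tables, matched by symbol and miRNA name: 3 of 3 microRNAs and all 8 genes matched, and windows of 3 genes are shown.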

Additional observations from a re-analysis of the deposited data

Results flagged for a closer look

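In 108 groups of 4 libraries, 9 values lay far from the other 3 of their group (Dixon's test, critical value 0.829), where chance gives about 1 in 20. Among the myosin genes, all 3 such values were in cHET 3: Myl2 to Myl7 was 68.4 there, against 0.995 to 2.01 in the other cHET hearts, Myl3 to Myl4 was 408, against 6.71 to 14.3, and Mylk3 was 92.0 FPKM, against 71.0 to 74.4. The FPKM of Myl7 (69.0) and Myl4 (7.55) in cHET 3, on which these ratios rest, were not among the flagged values. The atrial markers Sln (1.37 FPKM) and Nppa (163 FPKM) were lowest in the same library. Ppp1r12a was low in cHET 2, at 13.2 FPKM against 16.6 to 17.3 in the other cHET hearts. C1qb was high in the same heart, at 20.3 FPKM against 13.3 to 14.1. In Ctrl 1, Pln was high at 439 FPKM, against 305 to 320.1 in the other Ctrl hearts. In Ctrl 2, Acta2 was high at 753 FPKM against 321 to 352, Upk3b was high at 26.1 FPKM against 9.66 to 11.8, and Ckm was low at 299.99 FPKM against 375 to 388.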

How the results depend on the processing

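Of 168 fits of the 8 genes over 21 alternative settings, 151 kept the direction of the log2 fold change, 17 reversed it and 0 passed the test (limma, lowest adjusted p = 0.368). The count of genes past the test over the whole table, 3 in the reported fit, was 1 with a mean FPKM of at least 5, 11 with library weights (8 higher and 3 lower in cHET), and 2 to 3 with 1 library left out; voom on the rebuilt reads called 2. Reversed values were 0.081 for Myh6 and 0.035 for Myl3 under quantile normalization, 0.088 for Myh7b as TPM, and 0.0073 for Myh7b and -0.13 for Mylk3 with library weights. Without Ctrl 1 and Ctrl 2 they were 0.11 for Myh7b, 0.035 for Myl2, 0.027 for Myl3, -0.18 for Mylk3 and -0.12 for the log2 ratio of Myh6 to Myh7. Without cHET 3 and Ctrl 4, chosen after the values were seen, they were 0.15 for Myl7, -0.57 for Myl2 to Myl7 and -0.096 for Myl3 to Myl4. With each library left out in turn, the log2 fold change ran from -0.39 to -0.026 for Myh6, from -0.63 to -0.099 for Myh7, from -0.14 to 0.20 for Myh7b, from -1.58 to 0.22 for Myl4, from -1.29 to 0.62 for Myl7 and from -0.11 to 0.093 for Mylk3. The log2 ratio ran from -0.18 to 0.24 for Myh6 to Myh7, from -0.95 to 1.09 for Myl2 to Myl7 and from -0.45 to 1.53 for Myl3 to Myl4. The causes of these changes were not tested.

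Replicate numbers are shared by the groups. Over the genes tested, deviations from the group mean in hearts of the same number correlated at 0.286, 0.266, 0.052 and 0.057. These values do not settle whether the numbers pair the hearts. With a replicate block 1 gene passed the test and 0 of the 8 did; the log2 ratio differences stayed at 0.11, 0.41 and 0.87, where 4 pairs cannot give a p below 0.125. In the deviations from the group mean, cHET 1 and cHET 2 correlated best with the Ctrl heart of their own number. cHET 3 did so with Ctrl 4, and cHET 4 with Ctrl 2. The block lowered the SE of Myh7 from 0.308 to 0.175 and that of Myh7b from 0.232 to 0.121. It raised the SE of Myl2 from 0.205 to 0.229 and that of Myl3 from 0.164 to 0.195. With 4 hearts per group and the spread of Myl4 and Myl7, the intervals of their log2 fold changes were wide (-3.38 to 1.40 and -3.29 to 1.92), and differences within them were not detectable.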
